A study of Mus musculus with 59 samples.

Results

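A set of 10 genes that mark T cells were followed in lung, liver and forestomach of mice dosed with benzo(b)fluoranthene (BbF), a polycyclic aromatic hydrocarbon. They were chosen by name, as the 3 CD3 chains Cd3d, Cd3e and Cd3g, the coreceptor chains Cd4, Cd8a and Cd8b1, the kinases Lck and Zap70, and the surface receptors Cd2 and Cd5. All 10 were on the array, with 14 probes among them, out of 37163 genes or transcripts and 55681 probes in all. A T cell recognizes a peptide held on an MHC molecule through its antigen receptor, whose own chains carry no signal into the cell. The CD3 chains do so instead. The coreceptor CD4 or CD8 binds the same MHC molecule and brings the kinase Lck to the receptor, where it phosphorylates the CD3 chains and the kinase Zap70 that docks on them. In mouse tissues these RNAs are taken as marks of T cells that circulate or reside there. Some are also made by other leukocytes, and which cells gave them in each tissue was not tested.

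The animals were male MutaTMMouse of about 16 weeks, a transgenic strain that carries a lacZ reporter for mutation assays, so the vehicle group carried the transgene as well. Olive oil, with BbF at 0 (vehicle), 25 (low), 50 (medium) or 100 (high) mg/kg-bw/day, was given by oral gavage for 28 days, and tissues were frozen 72 hours after the final dose. There were 20 mice, each with an array for every tissue (vehicle 1 to 5, low dose 6 to 10, medium dose 11 to 15, high dose 16 to 20), apart from mouse 7, whose lung was not analysed here, which left 59 arrays in 12 groups of 5, or 4 in low-dose lung. The exposure label and the design text name another hydrocarbon, benz(a)anthracene, while titles and treatment protocol name BbF. RNA came from a random section of whole tissue, so that fewer T cells and less of an RNA per T cell cannot be told apart in any value below. Sample RNA was labelled with Cy5 and set against Universal Mouse Reference RNA (a mix from mouse cell lines) carrying Cy3, and a value below is the log2 ratio of the sample to that pool. It compares 1 gene between arrays and never 1 gene with another. A gene is given by its brightest probe unless another is named.

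Each microarray slide held arrays of 1 tissue, so slide and tissue cannot be told apart between tissues. A single liver slide was dim. On its 8 arrays 10.7 to 12.9% of probes were well above background in Cy5, against 37 to 46.2% on the other liver arrays, 44.8 to 68.8% in lung and 39.6 to 52% in forestomach. It carried 1 vehicle array (mouse 5), 2 low, 2 medium and 3 high-dose arrays. Differences between tissues that turned on mouse 5 are also given without that slide. In lung the 68.8% was on the array of medium-dose mouse 13, and the other lung arrays reached at most 52.7%. In vehicle mice the 10 genes did not share 1 order of tissues. Mean levels were highest in lung for Cd3d, Cd3g, Cd8a, Cd8b1, Lck, Cd2 and Cd5, and in liver for Cd3e, Cd4 and Zap70. For Cd5 and Cd3e the groups overlapped, and with all arrays no difference between tissues was called. In the vehicle groups markers of the tissues matched the labels, as Sftpc and Scgb1a1 were called higher in vehicle lung than in liver or forestomach, Alb and Apoa2 in liver than in lung, and Krt13 and Krt4 in forestomach than in lung. Some treated arrays stood apart in the mean over these 6 genes. It was 4.272 in low-dose lung of mouse 6, against 2.265 to 2.572 on the other lung arrays. In forestomach it was 4.475 and 4.059 in medium-dose mice 12 and 15, against 2.588 to 3.461 on the others. The cause was not tested.

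Cd3d and Cd3g start 1355 bases apart on chromosome 9 and are transcribed away from each other, and Cd3e starts 27825 bases from Cd3d on the same chromosome. The promoter windows of these neighbours are shown because their chains belong to 1 complex while their values differed, and that of Cd8a because it came near the thresholds in lung. Each is the 250 bases before the RefSeq start, 5′ to 3′ on the strand of the gene (GRCm38.p6): chr9:44981536-44981785 on the plus strand for Cd3d, chr9:44980432-44980681 on the minus strand for Cd3g, chr9:45009612-45009861 on the minus strand for Cd3e and chr6:71373177-71373426 on the plus strand for Cd8a. Capitals mark AGGAAG, a form of the site that ETS factors bind, on either strand.
Cd3d: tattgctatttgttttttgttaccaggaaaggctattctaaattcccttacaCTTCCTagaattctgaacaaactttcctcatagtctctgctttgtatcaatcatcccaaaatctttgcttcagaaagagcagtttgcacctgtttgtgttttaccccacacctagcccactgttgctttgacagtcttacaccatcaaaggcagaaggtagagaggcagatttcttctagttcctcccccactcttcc
Cd3g: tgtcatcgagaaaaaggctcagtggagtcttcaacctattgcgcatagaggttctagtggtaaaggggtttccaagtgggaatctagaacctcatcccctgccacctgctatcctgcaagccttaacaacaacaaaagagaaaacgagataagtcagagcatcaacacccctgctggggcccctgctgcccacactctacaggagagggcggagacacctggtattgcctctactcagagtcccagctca
Cd3e: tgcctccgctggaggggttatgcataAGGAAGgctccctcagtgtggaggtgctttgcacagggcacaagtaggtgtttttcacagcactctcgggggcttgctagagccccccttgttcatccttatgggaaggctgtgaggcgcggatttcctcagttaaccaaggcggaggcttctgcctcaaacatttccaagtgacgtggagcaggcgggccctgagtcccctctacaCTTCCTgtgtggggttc
Cd8a: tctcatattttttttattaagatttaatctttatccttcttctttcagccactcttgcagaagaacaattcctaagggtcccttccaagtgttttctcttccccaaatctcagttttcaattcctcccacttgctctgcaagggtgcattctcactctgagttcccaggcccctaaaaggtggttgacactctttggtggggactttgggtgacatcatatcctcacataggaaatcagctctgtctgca
Short motifs were searched on both strands, and in the members' windows no match overlapped another. They were AGGAAG for ETS factors, then TGTGGT for RUNX factors, and lastly GCGTG, the core to which the aryl hydrocarbon receptor (AhR), the receptor for BbF and its relatives, binds with its partner. The 7 members in the table (Cd3d, Cd3e, Cd3g, Cd8a, Lck, Cd5 and Zap70) had 10 windows. AGGAAG was found in 7 of the 10, from 5 genes, against 29.5% of all 32851 windows. TGTGGT was found in 2, of Lck and Zap70, against 14% of all windows. GCGTG was found in 2, both of Zap70, against 28.2% of all windows, so none of the printed windows holds that core.

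Of the CD3 chains, Cd3d separated the tissues most. In vehicle lung its log2 ratio was 1.79, 2.34, 2.22, 2.82 and 2.77 in mice 1 to 5, in liver −0.12, −0.19, 0.17, 0.19 and 0.00, and in forestomach −0.28, −0.48, −0.22, −0.43 and −0.39. Every lung value lay above every value of the other tissues. Lung exceeded liver 5.2-fold (log2 difference 2.38 ± 0.17 SE, limma, adjusted p = 6.68e-14), with 3 of 5 liver arrays well above background. Against forestomach, where no vehicle array was well above background, it was at least 6.05-fold higher (adjusted p = 1.74e-14). Such a bound sets the mean Cy5 signal of the bright group against a mean over the dim arrays. On each dim array it takes the higher of the gene's own signal and the lowest signal counted as well above background. It rests on Cy5 signals alone, without the ratio to the reference. Cd3g was also highest in lung, with a mean of −0.46 ± 0.32 (SD, n = 5) against −1.30 ± 0.61 in liver and −2.07 ± 0.07 in forestomach. Its lung to forestomach difference was 3.06-fold (log2 1.61 ± 0.14 SE, limma, adjusted p = 8.1e-12). The lung to liver difference of Cd3g was 1.78-fold (adjusted p = 0.0495, limma) with overlapping groups, since vehicle mouse 5 on the dim slide read −0.23 against −1.71 to −1.33 in the other vehicle livers. That call was lost with the mouse as a block (adjusted p = 0.0597, limma) and was kept without the dim slide, where the log2 difference was 1.10 (adjusted p = 1.4e-08, limma). Cd3e did not follow the other 2 chains. Its vehicle means were −1.11 ± 0.21 in lung (SD, n = 4, as the spot of mouse 4 was missing), −0.54 ± 0.40 in liver (n = 5) and −0.90 ± 0.18 in forestomach (n = 5), and no difference between tissues was called for it.

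The coreceptors differed in their order of tissues. Cd8b1, the beta chain of CD8, read 1.07, 0.78, 0.85, 1.90 and 0.90 in vehicle lung, all above the liver (−0.26 to 0.10) and forestomach (−0.57 to −0.33) values, and no vehicle array of either other tissue was well above background for it. Lung was at least 2.11-fold above liver and at least 2.26-fold above forestomach (limma, adjusted p = 5.99e-05 and 1.22e-07). The alpha chain Cd8a was dim everywhere, with 2 of 5 vehicle lung arrays and no array of liver or forestomach well above background. Its vehicle lung values of 0.25 to 0.58 nevertheless lay above all of those in liver (−0.04 to 0.01) and forestomach (−0.09 to −0.02). The same calculation gave 1.18-fold over liver and 1.15-fold over forestomach. With only 2 of 5 vehicle lung arrays well above background, these are not lower bounds. Cd4, the coreceptor of helper T cells, went the other way. In vehicle liver it read 3.28, 3.29, 3.31, 2.90 and 3.30, in lung 0.53, 0.18, 0.39, 0.41 and 0.56, and in forestomach 0.71, 0.78, 0.64, 0.81 and 0.73. Liver stood above both with no overlap, by 6.98-fold over lung and 5.6-fold over forestomach (limma, adjusted p = 4.58e-20 and 1.29e-18). Without the dim slide the liver minus forestomach difference was 2.46 on the log2 scale, while with median centring in place of loess it was 1.89 and no longer called (adjusted p = 0.386, limma), nor was that of lung and liver (−2.11, adjusted p = 0.27, limma). Median centring called fewer of all genes as well, 3624 against 8812 with loess between vehicle liver and forestomach and 4766 against 10853 between vehicle lung and liver. The second Cd4 probe did not show this. It was well above background on 3 of 5 vehicle liver arrays, with values of 0.01 to 0.36 there and 0.04 to 0.12 in lung, and its lung minus liver difference was −0.16 ± 0.07 (adjusted p = 0.0852, limma).

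Lck, the kinase that starts receptor signalling, averaged −0.99 ± 0.52 in vehicle lung, −2.48 ± 1.15 in vehicle liver and −2.80 ± 0.03 in vehicle forestomach (SD, n = 5 each). Lung exceeded forestomach 3.51-fold without overlap (limma, adjusted p = 7.16e-10). The lung to liver difference was 2.81-fold (adjusted p = 0.0483, limma) and overlapped through mouse 5, which read −0.46 on the dim slide against −3.25 to −2.65 in mice 1 to 4. Without that slide it was 1.99 on the log2 scale (adjusted p = 5.58e-11, limma). Zap70, the kinase that docks on phosphorylated CD3, was highest in liver, where vehicle mice read 1.78, 2.28, 1.67, 2.35 and 0.91, the last on the dim slide. Lung vehicle values ran from −1.26 to −0.43 and forestomach values from −2.82 to −2.48, so the 3 tissues did not overlap. Liver exceeded lung 6.65-fold and forestomach 22.4-fold, and lung exceeded forestomach 3.36-fold (limma, adjusted p = 6.97e-10, 5.21e-15 and 6.76e-12). A second Zap70 probe gave the same order and the same 3 calls, at 7.39-fold, 13.9-fold and 1.88-fold. With median centring the lung minus liver difference of the brightest probe was −2.36 and not called (adjusted p = 0.128, limma), where 4766 of all genes were called against 10853 with loess. The adhesion receptor Cd2, which binds CD48 on other leukocytes, was higher in lung than in either other tissue. Its vehicle lung values were 2.81, 3.26, 3.17, 3.56 and 3.71, against −0.37 to 0.03 in liver and −0.49 to 0.10 in forestomach. That was 10.8-fold over liver, where 1 of 5 arrays was well above background, and 11.1-fold over forestomach, where 3 of 5 were (limma, adjusted p = 1.97e-19 and 7.06e-17). Cd5, which dampens receptor signalling, averaged −1.45 ± 0.33 in vehicle lung, −1.77 ± 0.96 in vehicle liver and −1.51 ± 0.29 in vehicle forestomach (SD, n = 5 each), and no difference between tissues was called. Vehicle mouse 5 on the dim slide read −0.10 for it, against −2.45 to −1.89 in the other vehicle livers. Without that slide Cd5 was called lower in liver, by a log2 difference of 0.74 for lung minus liver (adjusted p = 0.000828, limma) and −0.68 for liver minus forestomach (adjusted p = 0.0096, limma).

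In total 7 of the 10 genes were called between vehicle lung and liver (5 higher in lung, 2 in liver), where 29.2% of all genes were. Between lung and forestomach 6 were called, all higher in lung, against 24.8% of all genes, and between liver and forestomach 2 (Cd4 and Zap70, both higher in liver) against 23.7%. Without the dim slide the counts with liver were 8 and 3, through Cd5, and the shares of all genes in those fits are not given here. A gene was called when a probe had p at or under 0.05 after Benjamini-Hochberg adjustment over all probes and differed by at least 1.5-fold.

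**Figure D1:**
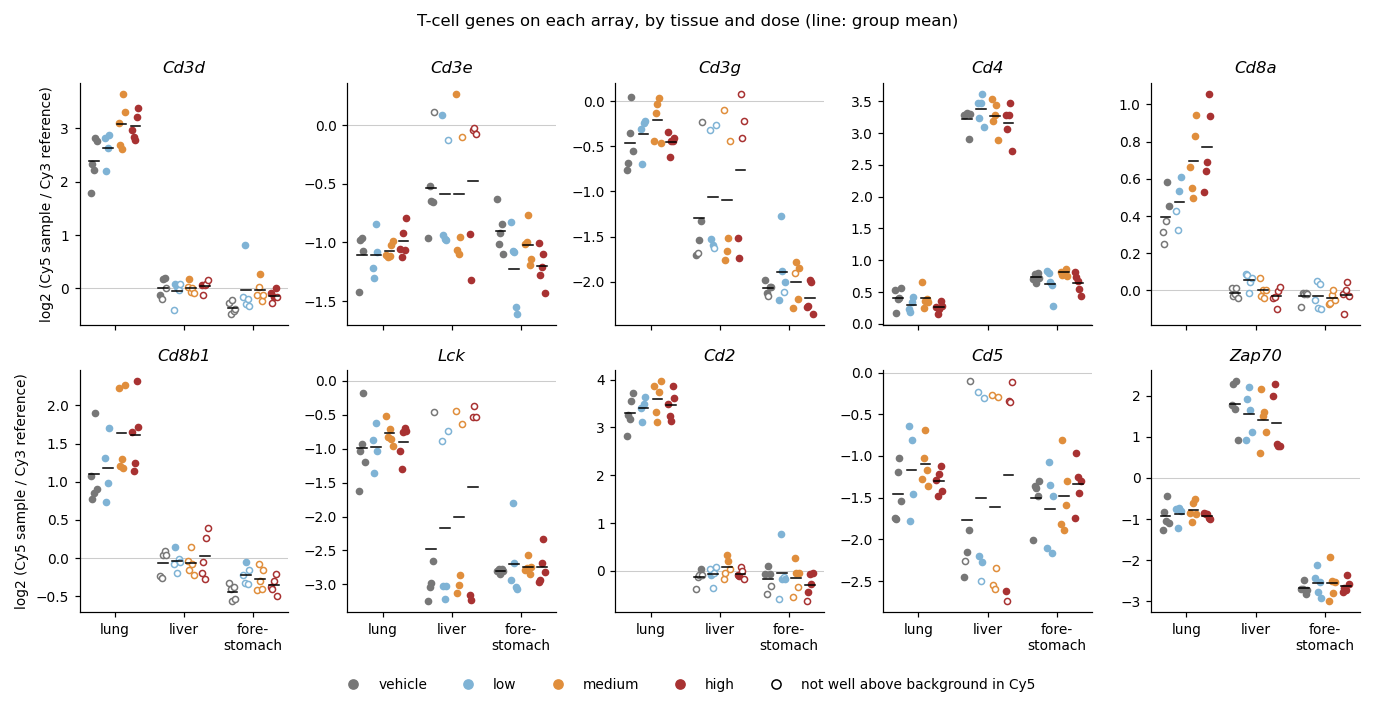
Log2 ratio of sample to reference for each of the 10 T-cell genes (panels) on every array, by tissue and dose group; each point is 1 mouse, open points were not well above background in Cy5, and lines are group means. Lung stands highest for Cd3d, Cd3g, Cd8a, Cd8b1, Lck and Cd2 and liver for Cd4 and Zap70, and within each tissue every dose group overlaps the vehicle group for each gene.

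Whether BbF changed these RNAs was asked in each tissue by comparing each dose with vehicle. No member was called at any dose in any tissue by limma. In lung this stood against 0.449% of all genes for the low, 0.638% for the medium and 1.93% for the high dose. With unadjusted p under 0.05 taken instead, 0, 2 and 2 of the 10 members passed in lung at the 3 doses, where 10.1, 16.1 and 21% of all genes did by their brightest probe. The medians over the members were a log2 change of 0.08, 0.28 and 0.13 at the low, medium and high dose in lung, with 8, 9 and 9 of the 10 above 0. The medians over all genes were near 0, where loess places each array, and the share of all genes above 0 is not given here. With median centring in place of loess, the high-dose median of the members was 0.46 in lung, where the median of all genes was 0.09.

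Cd3d came nearest to a call. Its lung values were 2.83, 2.20, 2.64 and 2.88 in low-dose mice (mice 6, 8, 9 and 10), 3.1, 2.68, 2.62, 3.65 and 3.31 in medium-dose mice and 2.97, 2.85, 2.79, 3.22 and 3.38 in high-dose mice. The high dose exceeded the top vehicle value of 2.82 in 4 of 5 mice, and the remaining mouse lay just under it. The change was 0.69 ± 0.20 (SE) for the medium and 0.65 ± 0.20 for the high dose on the log2 scale, that is 1.61-fold and 1.57-fold, with adjusted p = 0.0927 and 0.0646 (limma). The slope over dose missed the threshold as well (0.66 ± 0.21 from 0 to the high dose, adjusted p = 0.0642, limma). Cd3d was called under some alternatives. At the high dose it was called with median centring (log2 0.81, adjusted p = 0.00198, limma), among probes filtered for signal (adjusted p = 0.0457, limma), in a fit of the high-dose and vehicle groups alone (adjusted p = 0.047, limma) and without vehicle mouse 4 or 5 (adjusted p = 0.0389 and 0.0446, limma). For the medium dose it was called with median centring and without medium-dose mouse 13 (adjusted p = 0.0301 and 0.0474, limma). Median centring called 3208 of all genes in high-dose lung, 3174 of them higher, against 717 with loess. Lung slides did not hold the doses equally, since 5 of the 7 arrays of 1 slide were medium or high. With slide as a block the high-dose change of Cd3d was 0.55 on the log2 scale, below the fold threshold (adjusted p = 0.0333, limma), and within the 3 lung slides the difference of high dose and vehicle was 0.53, 0.27 and 0.84.

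Cd8a passed the p-value threshold at the high dose but not the fold threshold. Its lung values were 0.31, 0.25, 0.37, 0.58 and 0.46 in vehicle mice, 0.43, 0.33, 0.53 and 0.61 in low-dose mice, 0.66, 0.55, 0.50, 0.83 and 0.94 in medium-dose mice and 0.53, 0.64, 0.69, 1.06 and 0.94 in high-dose mice. The top vehicle value was exceeded by 4 of 5 high-dose mice, and all 10 medium and high-dose arrays were well above background against 2 of 5 vehicle arrays. Among those 10, the array of mouse 13, which read 0.50, had 68.8% of all probes well above background. The change was 1.3-fold at the high dose (log2 0.38 ± 0.11 SE, limma, adjusted p = 0.0345), where median centring gave an adjusted p of 0.149 and the authors' values 0.0597, and 1.31-fold by the slope over dose (adjusted p = 0.0218, limma). With slide as a block it was 0.34 at the high dose (adjusted p = 0.0111, limma), with 0.54, 0.21 and 0.31 within the 3 slides. A second Cd8a probe, well above background on 1 of 19 lung arrays (that of mouse 13), changed by 0.04 ± 0.09 (adjusted p = 0.871, limma). The beta chain Cd8b1 read 1.30, 0.74, 0.99 and 1.70 in low-dose mice, 2.23, 1.20, 1.30, 1.17 and 2.27 in medium-dose mice and 1.65, 1.14, 1.24, 2.32 and 1.71 in high-dose mice. Only 1 of 5 high-dose mice exceeded the highest vehicle mouse, and the change of 0.51 ± 0.27 had an adjusted p of 0.321 (limma).

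The other members moved less in lung. Cd2 changed by 0.30 ± 0.18 for the medium and 0.17 ± 0.18 for the high dose, and its second probe by 0.43 ± 0.20 at the high dose (adjusted p = 0.245, limma). Cd5 and Cd3g were highest at the medium dose, at 0.35 ± 0.19 and 0.26 ± 0.14, and returned to 0.15 ± 0.19 and 0.01 ± 0.14 at the high dose. Lck (0.08 ± 0.19), Zap70 (0.02 ± 0.13) and Cd3e (0.12 ± 0.10) changed by little more than their SE or less at the high dose. Cd4 was the 1 member below vehicle there, at −0.16 ± 0.09 (adjusted p = 0.353, limma), and was at 0.23 with median centring. For none of the 9 members with a complete set of spots did all mice of the medium or of the high-dose group exceed all vehicle mice, where this held for 2.11 and 4.26% of all genes. By the slope over dose no member was called in lung, against 1.64% of all genes.

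**Figure D2:**
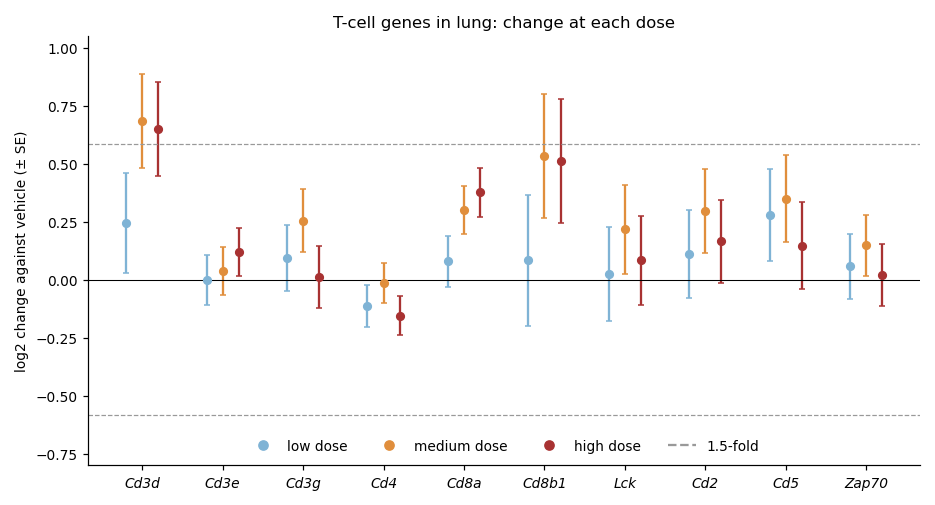
Log2 change against vehicle in lung for each T-cell gene at the low, medium and high dose, with standard errors from limma; dashed lines mark 1.5-fold. Cd3d lies above the 1.5-fold line at the medium and high dose, at 0.69 and 0.65, with adjusted p above 0.05, and Cd4 is the only gene below 0 at all 3 doses.

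In liver no member was called at any dose or by the slope, where 0% of all genes were called for the low and for the medium dose, 0.00538% for the high dose (2 genes) and 0.0135% by the slope. No member had an unadjusted p under 0.05 in any of these comparisons, where in that order 3.3, 4.56, 8.09 and 9.04% of all genes did by their brightest probe, and the medians over the members were 0.06, 0.03 and 0.06 on the log2 scale. The spread followed the dim slide. Lck read −0.88 to −0.37 on its 8 arrays and −3.25 to −2.65 on the other 12, and Cd5 −0.35 to −0.10 against −2.75 to −1.89. None of the 8 dim arrays was well above background for Lck, Cd5 or Cd3g. Zap70 ran from 0.61 to 1.12 on the dim slide and from 1.5 to 2.35 elsewhere, whereas Cd4, well above background on every array, did not separate by slide (2.71 to 3.53 against 2.90 to 3.62). Of the 5 high-dose livers 3 were on that slide against 1 of 5 vehicle livers. Lck had a high-dose mean of −1.57 ± 1.49 (SD, n = 5) against −2.48 ± 1.15 in vehicle. Without the dim slide the count of called members stayed at 0 in liver, and Cd5 passed the p-value threshold alone by the slope over dose (log2 −0.51, adjusted p = 0.0497, limma). Only 6 of the 20 liver arrays were well above background for Cd5.

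**Figure D3:**
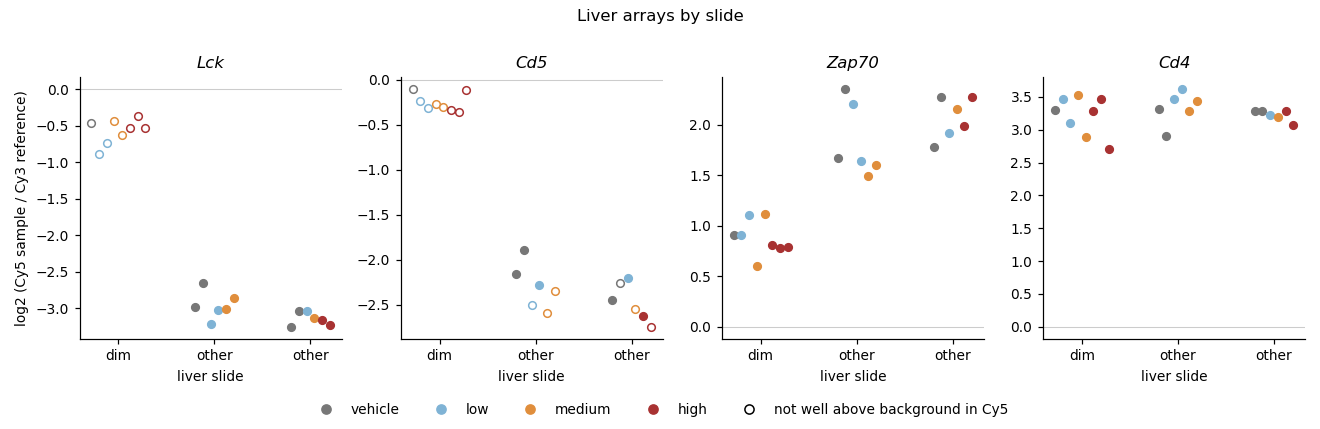
Log2 ratio of sample to reference on the 20 liver arrays for Lck, Cd5, Zap70 and Cd4, by slide; colours are doses and open points were not well above background in Cy5. Lck and Cd5 sit near 0 on the dim slide and below −1.8 on the other slides, Zap70 is lower on the dim slide, and Cd4 does not separate.

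In forestomach, the squamous-lined first part of the mouse stomach, no member was called at any dose or by the slope, where in that order 0, 0, 0.102 and 0.0888% of all genes were. At an unadjusted p under 0.05 the members numbered 2, 1, 1 and 0, where 4.65, 5.79, 8.98 and 8.89% of all genes passed by their brightest probe. The medians over the members were 0.10, 0.07 and 0.03 on the log2 scale. One animal stood apart. Low-dose mouse 7 read 0.81 for Cd3d (the other 4 low-dose mice −0.34 to −0.16), 0.77 for Cd2 (−0.59 to −0.12), −1.80 for Lck (−3.07 to −2.69) and −1.27 for Cd3g (−2.20 to −1.88). Its mean over the 10 members was −0.52, against −1.16 to −0.75 on the other 19 forestomach arrays. The means of the cytotoxic effector (0.40), NK-cell (0.23), dendritic cell (0.45), T-cell receptor signalling (−0.923) and pan-leukocyte (−1.10) markers were the highest of the tissue on the same array. The mean of the B-cell markers was −0.85, within −0.98 to −0.58 of the others. Without this mouse the median of the members at the low dose was −0.06. That mouse is the one without a lung array here.

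The effect of the high dose was also compared between tissues, as a difference of effects. None of the 10 members was called for lung minus liver, lung minus forestomach or liver minus forestomach, where 0.439, 1.03 and 0.0404% of all genes were. Cd8a had the smallest p of the members in both comparisons with lung, at 0.40 ± 0.11 over liver and 0.37 ± 0.12 over forestomach (adjusted p = 0.148 and 0.128, limma), although no liver or forestomach array was well above background for Cd8a, and Cd3d followed over liver at 0.61 ± 0.24 (adjusted p = 0.375, limma). At an unadjusted p under 0.05 the members numbered 2, 2 and 0 in the 3 comparisons, where 10.8, 11.5 and 7.27% of all genes passed by their brightest probe.

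Other genes of T cells in lung were counted from lists beside the members. Of 18 genes of receptor signalling and the T-cell surface, none was called at any dose, and the median over them was 0.07 for the high dose with 13 above 0, beside 0.13 for the members. Of 9 genes of T-cell identity and homing, 2 rose and 1 fell at the high dose, with a median of 0.45. Ccr7, the receptor that guides naive T cells, B cells and mature dendritic cells into lymph nodes, rose most clearly. It read 2.93, 3.33, 2.92, 3.61 and 3.37 in vehicle lung, 4.15, 3.96, 3.97, 4.05 and 4.55 in medium-dose mice and 4.62, 4.18, 4.2, 4.42 and 4.73 in high-dose mice. No medium or high-dose mouse was as low as the highest vehicle mouse, with a change of 0.90 ± 0.18 for the medium and 1.20 ± 0.18 for the high dose (limma, adjusted p = 0.0108 and 0.000296). Il7r, the receptor for the survival factor interleukin-7, rose by 0.71 ± 0.21 and S1pr1, the receptor for egress from lymphoid tissue that endothelium also expresses, fell by 0.69 on the log2 scale (limma, adjusted p = 0.0441 and 0.0355). Ccr7 remained called when any 1 mouse was left out, while Il7r kept its call in 2 and S1pr1 in 5 of the 10 fits with a mouse of either group left out (adjusted p up to 0.131 without mouse 20 and 0.0957 without mouse 18, limma). With median centring S1pr1 was at −0.23 and not called (adjusted p = 0.486, limma).

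Of 12 cytotoxic effectors 3 fell in lung at the high dose and none rose, with 11 of 12 below 0 and a median of −0.42. Gzma, a granzyme of cytotoxic T cells and NK cells, read 4.70, 5.43, 5.59, 6.71 and 5.65 in vehicle mice, 5.36, 4.56, 5.20 and 3.89 in low-dose mice, 5.27, 3.09, 3.50, 4.03 and 3.23 in medium-dose mice and 2.81, 1.5, 3.31, 5.03 and 1.98 in high-dose mice. High-dose mouse 19 lay above the lowest vehicle mouse and the other 4 below all of them. The change was −2.69 ± 0.53 (limma, adjusted p = 0.00313). The chemokine Ccl5 fell by 1.58 and the chemokine receptor Cxcr6 by 0.66 on the log2 scale (limma, adjusted p = 0.0313 and 0.00397). Of 6 NK-cell markers, Ncr1 and Klrb1c (−0.75 ± 0.18) fell at the high dose (limma, adjusted p = 0.0042 and 0.0142), and Klra8 by the slope over dose (−0.63 ± 0.13, adjusted p = 0.00336, limma). Of 5 high-dose lung arrays none was well above background for Ncr1, for which no fold is given, and 1 was for Klrb1c and for Klra8. Gzma, Cxcr6, Ncr1 and Klrb1c kept their calls with any 1 mouse left out, whereas Ccl5 kept its call in 3 of 10 such fits (adjusted p up to 0.101, without mouse 17, limma). With median centring Ccl5 (−1.01, adjusted p = 0.0504), Cxcr6 (−0.38, adjusted p = 0.0827), Ncr1 and Klra8 were not called (limma).

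Markers of other cells were listed to show what else moved in the same lungs. Of 9 genes of helper and regulatory T cells, Gata3 fell (−0.65 ± 0.18, adjusted p = 0.0296, limma), a factor that other lung cells also express, and the median was 0.03. The 8 B-cell markers had a median of 0.32 at the high dose, with 7 above 0. Over the arrays the mean of the B-cell markers ran from 0.55 to 1.32 in vehicle lung and from 1.06 to 1.72 at the high dose. Of 7 macrophage markers 1 rose (Marco, 1.30 ± 0.35, adjusted p = 0.0274, limma), of 4 neutrophil markers 1 rose (S100a8, 1.20 ± 0.34, adjusted p = 0.0401, limma), and of 7 dendritic cell markers 1 fell (Siglech by a second probe, −0.94 ± 0.22, adjusted p = 0.0126, limma). None of 4 thymocyte markers, 6 pan-leukocyte markers, 5 lymph node stroma markers or 6 tissue identity genes was called. With any 1 of the compared mice left out, Gata3 and Marco kept their calls in 3 of 10 fits and S100a8 in 4 (adjusted p up to 0.0841 without mouse 19, 0.0776 without mouse 4 and 0.123 without mouse 1, limma). With median centring Gata3 was at −0.21 and not called (adjusted p = 0.516, limma). The part of these cells in the values of the T-cell genes was not tested.

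**Figure D4:**
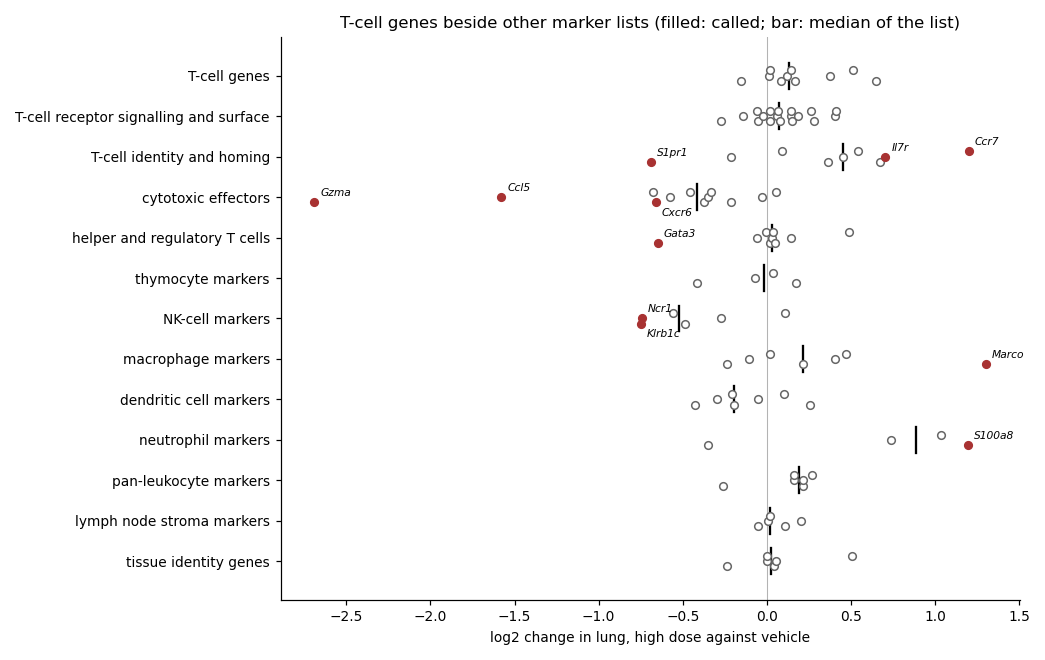
Log2 change in lung at the high dose against vehicle for the T-cell genes and 12 other lists (B-cell markers not drawn), 1 point per gene by its brightest probe; filled points passed both thresholds and vertical bars are list medians. The T-cell genes spread from −0.16 to 0.65 with none filled, whereas Ccr7 (1.20) and Gzma (−2.69) lie far out on opposite sides.

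Among mice of the same group the T-cell genes varied together in lung. Over the 45 pairs of members, the correlation of their deviations from the group means across 19 lung arrays had a median of 0.39, with 43 pairs above 0, and was highest at 0.87 for Cd3d with Cd2. Cd4 (median 0.15 with the other 9) and Cd5 (0.16) had the lowest medians, which were −0.08 and 0.47 once slide means were removed as well, so that the place of Cd5 did not hold. The mean log2 ratio over the members ran from −0.03 to 0.66 in vehicle lung, so that the range among 5 vehicle mice exceeded the shift of group means from 0.27 in vehicle to 0.46 at the high dose. For these means the missing Cd3e spot was set to its group mean. The members' mean deviated together with that of the receptor signalling list (r = 0.86 over 19 arrays, rho = 0.80), the pan-leukocyte markers (r = 0.84, rho = 0.85) and the B-cell markers (r = 0.82, rho = 0.84). It did so less with the NK-cell markers (r = 0.62, rho = 0.57) and not with the macrophage markers (r = −0.15, rho = −0.01). These points share arrays and slides, and without the 2 farthest arrays r was 0.77, 0.87, 0.74, 0.58 and 0.24 in the same order. With the cytotoxic effectors r was 0.79, with the identity and homing genes 0.77 and with the neutrophil markers 0.54. Without the 2 farthest arrays these were 0.74, 0.75 and 0.72. For the remaining lists r lay between −0.24 and 0.28 over the 19 arrays.

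**Figure D5:**
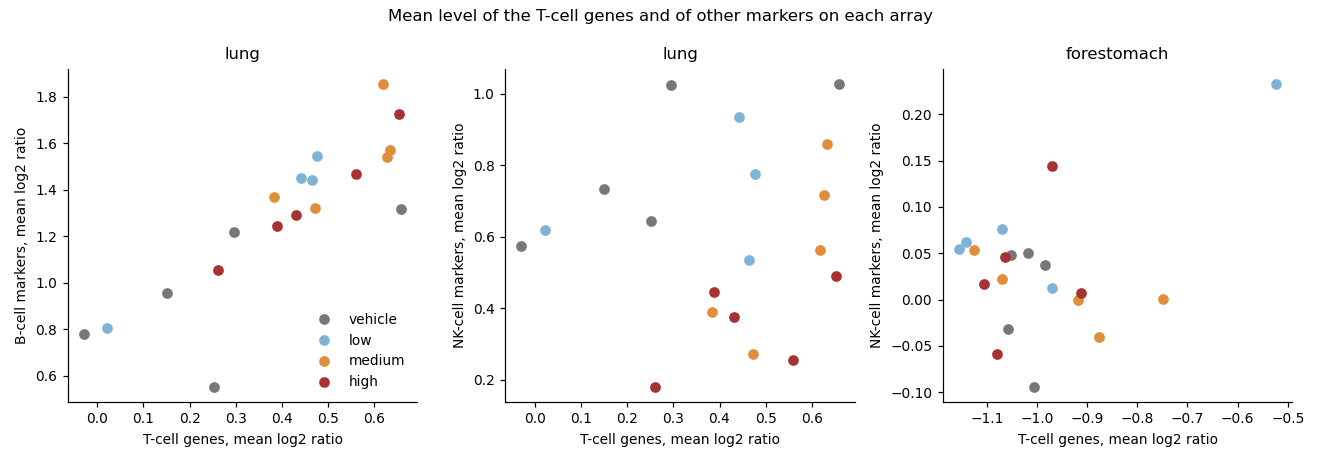
Mean log2 ratio of the 10 T-cell genes (horizontal) against that of the B-cell markers in lung, the NK-cell markers in lung and the NK-cell markers in forestomach (vertical), 1 point per array, coloured by dose. In lung, arrays with a higher T-cell mean mostly have a higher B-cell mean, the NK-cell mean of every high-dose mouse lies below that of every vehicle mouse, and 1 low-dose forestomach array lies apart at −0.52 and 0.23.

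Over the 45 pairs of members the median correlation was −0.02 in liver, with 22 above 0, and 0.31 in forestomach, with 36 above 0. With slide means removed the liver median was 0.08, with 26 above 0. Cd4 in liver was above 0 with none of the other 9 members and Zap70 with 1. Once slide means were removed these numbers were 1 and 3. In liver the correlations of the members' mean followed the dim slide: r with the B-cell markers was 0.98 over 20 arrays and 0.55 once slide means were removed as well. In forestomach r was 0.82 with the cytotoxic effectors, 0.76 with the pan-leukocyte markers and 0.74 with the receptor signalling list, and 0.68, 0.61 and 0.66 without the 2 farthest arrays. Of 14150 named genes outside the lists that had some group with all arrays well above background, the 10 whose deviations over all 59 arrays were most like the members' mean were Arl5c, H2-M3, Was, Itga4, Hcls1, Btf3, Cyth4, Gpr132, Itgb7 and Cd72, with r from 0.88 to 0.91. With slide means removed r was at most 0.78, and H2-M3, Arl5c, Itgb7, Itga4, Was and Gpr132 were again among the first 10. Over the 19 lung arrays alone the closest were Ripor2 (r = 0.91), Ly86 (0.89) and Slfn2 (0.89), a ranking added after the data had been seen.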

How the data were processed

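Expression was measured in 59 samples on 2-colour Agilent arrays with 62976 spots each, and their number limits the precision. The deposited scanner files hold the Cy5 and Cy3 intensity of each spot, extracted by the authors with Feature Extraction 10.7.3.1, with the build mm9 named in the grid; the authors also deposited a table of normalized log2 ratios of the same arrays, used as an alternative, whose columns correlated with the values below at r = 0.967 or more. From the files, log2(Cy5/Cy3) was taken of median intensities, with no background correction, and each array was normalized by loess (limma 3.58.1, R 4.3.3), with controls and non-uniform spots given no weight. The 59305 remaining spots were averaged to 55681 probes, of which 26413 were named through RefSeq accessions (GRCm38.p6). Each dose was compared with vehicle per tissue in 1 limma fit, beside a slope over dose, differences of the high-dose effect between tissues and vehicle levels between tissues, 2-sided. The study used another shrunken-variance statistic (Fs) with the same thresholds. Fits were tested on simulated data.

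The members and lists were chosen with earlier results of these data known. Named genes are the members, each list gene called in some comparison and the 10 genes that varied most like the members. Arrays of 1 mouse in different tissues share the animal, but their deviations from group means hardly went together (median r −0.03 to 0.04 for the 3 pairs of tissues). Alternatives were median centring, normexp with an offset of 50, the authors' values, Cy5 alone, slide or mouse as a block, a signal filter on at least 4 arrays, the compared groups alone, no dim slide and each mouse left out. With nothing stating otherwise, each mouse was taken as 1 replicate. A result for a listed gene is not reported here.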

Additional observations from a re-analysis of the deposited data

Results flagged for a closer look

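Of 120 groups of 4 or 5 mice, 11 held a mouse far from the others, where chance gives about 1 in 20. Vehicle mouse 5 stood apart in liver for Lck (−0.463), Cd5 (−0.101) and Cd3g (−0.23), and its array was on the dim slide. Low-dose mouse 7 stood apart in forestomach for Cd3d (0.812). Low-dose mouse 8 was lowest in lung for Cd3g (−0.697) and Zap70 (−1.221). In vehicle forestomach mouse 1 was lowest for Cd5 (−2.01) and Cd8a (−0.086). Vehicle mouse 4 was highest in lung for Cd8b1 (1.903) and lowest in liver for Cd4 (2.904), and low-dose mouse 6 was lowest in liver for Cd3d (−0.413).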

How the results depend on the processing

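With median centring in place of loess 1 member was called in lung at the high dose, at the medium dose and by the slope (Cd3d each time), and 1 in place of 2 between vehicle liver and forestomach. Between vehicle liver and forestomach median centring called 3624 of all genes against 8812 with loess. A filter on probes well above background gave 1 in lung at the high dose and by the slope, a fit of only the compared groups 1 at the high dose, and no fold threshold, chosen after seeing the data, 1 at the high dose (Cd8a). With 1 mouse left out, these 3 lung counts ran from 0 to 1. How many of all genes were called with the filter, the compared groups alone, no fold threshold or 1 mouse left out is not given here. Those counts of members therefore stand without a background. Of 140 counts under alternatives 132 kept within 1.5 times, as did 188 of 193 with 1 mouse left out. A count that was 0 and stayed at 0 was taken as kept, and no dose comparison had a called member. These totals therefore say little about stability. Median centring moved the members' median change to 0.463 in lung and −0.336 in liver at the high dose, and to 0.176, 0.132 and 0.128 in forestomach at the low, medium and high dose. Over all genes it shifted the high-dose median to −0.122 in liver, and it called 3208 genes in high-dose lung (3174 higher) against 717 (507 higher). At the medium dose in lung it called 369 of all genes against 237, and by the slope 2435 against 608. The forestomach median was −0.021 at the high dose with the filter and 0.038 at the low dose over all probes of a gene. With 1 mouse left out it ran from −0.058 to 0.16, 0.021 to 0.118 and −0.034 to 0.052 at the 3 doses.

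Changes near 0 turned sign. With the authors' values Cd3e at the medium dose was −0.021, Cd3g −0.028 at the high dose and −0.021 by the slope, and Zap70 −0.017 and −0.014. With slide as a block Cd3e was −0.004, and with Cy5 alone Cd3g was −0.025. Median centring gave Cd4 0.178, 0.228 and 0.219 at the medium dose, the high dose and by the slope. With 1 mouse left out, the medium-dose change ran from −0.082 to 0.024 for Cd4 and from −0.066 to 0.087 for Cd3e. That at the high dose ran from −0.061 to 0.147 for Zap70, −0.063 to 0.137 for Cd3g and −0.074 to 0.285 for Lck, and the slope from −0.052 to 0.106, −0.063 to 0.088 and −0.027 to 0.246. None of these was called, and the cause was not tested.

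With slide means removed, r with the members' mean became 0.88 for receptor signalling in forestomach. In lung it became −0.47 for macrophage, 0.3 for neutrophil, 0.03 for thymocyte and 0.41 for tissue identity genes. In liver it became 0.72 for receptor signalling and for pan-leukocyte, 0.55 for B-cell, 0.45 for identity and homing, 0.56 for macrophage, 0.15 for helper, 0.13 for tissue identity, 0.09 for lymph node stroma, −0.08 for thymocyte, −0.1 for neutrophil and −0.2 for dendritic cell genes.

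With the mouse as a replicate block, 6 members were called between vehicle lung and liver in place of 7, as Cd3g was lost, 6 between lung and forestomach, 2 between liver and forestomach, and 0 for each difference of high-dose effects. The shares of all genes called with that block are not given here. The lung to liver difference of Cd3g and Lck was not called in the authors' values (adjusted p = 0.0521 and 0.0611, limma) or without any 1 of vehicle mice 1 to 4. Signal limits Cd8a, Cd8b1 and Cd3d outside lung and Cd2 and Cd5 in liver, where most arrays were not well above background.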
